A study of Mus musculus with 3 samples.

Results

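The matricellular adhesion genes Postn, Tnc, Thbs1, Thbs2, Sparc, Spp1, Fn1 and Tgfbi were chosen by name from the count table, and they are 8 of the 24698 genes counted in a mouse Leydig cell differentiation culture. The culture was read by Drop-seq, a droplet method that counts RNA molecules in single cells through unique molecular identifiers (UMIs), and there was 1 library for each of days 4, 7 and 14. All 3 libraries came from testes of adult C57BL/6 males aged 8 to 12 weeks, from which Sca1+/cKit- cells were sorted and plated on Matrigel, a basement membrane extract that itself supplies matrix protein. After a recovery in serum, an expansion medium held PdgfAA, PdgfBB, SAG (an agonist of the Hedgehog pathway) and Fgf2, and the differentiation medium that replaced it after 3 days added LiCl2 and DAPT, an inhibitor of Notch processing. The number of animals behind a library is not given in the sources used here. With 1 library per day no test between days was possible, and a difference between days cannot be told apart from a difference between libraries. By the study's account, day 4 was sampled at the end of the expansion medium, and days 7 and 14 in the differentiation medium. A difference between day 4 and a later day thus also cannot be told apart from the change of medium. Every interval below is an exact 95% interval that covers counting error only.

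Matricellular proteins are secreted into the extracellular matrix, where most of them act less as building material than as ligands that change how cells attach. They bind integrins, the paired alpha and beta receptors that connect the matrix to the actin cytoskeleton through adhesion complexes, and also CD44, CD36, CD47 and the syndecans. They are best known from wound repair and myofibroblasts, the contractile cells that lay down matrix. Fibronectin, encoded by Fn1, is a structural matrix protein on which several of the others assemble.

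The 6124 cells held 12677110 UMIs on day 4 (2980 cells), 11627440 on day 7 (2171 cells) and 5324400 on day 14 (973 cells), with medians of 2886.5, 3285 and 3272 UMIs per cell. Mitochondrial genes took 1.37%, 1.46% and 2.64% of the UMIs. No cell barcode was shared between libraries among the cells used. Cells were clustered without the 8 genes and without their receptors, relatives and adhesion complex genes, and the clusters were named from marker lists, so each name means only that a cluster resembles that state. The states were differentiating myofibroblast-like (2209 cells on day 4), extracellular matrix (ECM) myofibroblast-like (1276 cells on day 7), interstitial progenitor-like (99, 289 and 35 cells on days 4, 7 and 14), proliferating progenitor-like (593, 480 and 14 cells), differentiating Leydig-like (505 cells on day 14) and Leydig-like (412 cells on day 14). The Leydig-like cluster had Hsd3b1, Cyp17a1, Cyp11a1 and Insl3 among its leading genes, and all 15 of its markers passed. The differentiating Leydig-like cluster was close to a second name, since the median log2 ratio of its markers was 1.66, and that of the interstitial progenitor markers 1.53. Of the 1276 ECM myofibroblast-like cells, 554 lay in a cluster where all 15 markers passed and 685 in one where 8 of 15 did. The other 37 lay in a cluster led by Gm37376 and Kcnq1ot1, where 9 of 15 passed. With 10 components and at resolution 1.2, clusters with Grem1 among their leading genes (644 and 304 cells of day 7) were unnamed. A cluster of 55 cells that carried macrophage genes in some cells and germ cell genes in others stayed unnamed.

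Postn encodes periostin, a matrix protein that promotes collagen assembly and binds integrins, and Tnc encodes tenascin-C, which weakens the attachment of cells to fibronectin. Both were highest on day 7. Postn was at 135.6 CPM (its UMIs per 1000000 UMIs of all genes; interval 129.3–142.2) on day 4, 449.6 (437.5–462.0) on day 7 and 48.8 (43.1–55.1) on day 14. Tnc was at 59.2 CPM (55.0–63.6), 172.5 (165.1–180.2) and 1.503 (0.649–2.96), the last from 8 UMIs in 5 of 973 cells. From day 4 to day 7 Postn was 3.32-fold higher (3.14–3.50) and Tnc 2.92-fold higher (2.68–3.18), and no interval of either gene overlapped another between days. From day 7 to day 14 Postn was 9.21-fold lower (8.13–10.5) and Tnc 115-fold lower (58.2–266).

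Thbs1 and Thbs2 encode thrombospondin-1 and thrombospondin-2, related glycoproteins that bind CD36 and CD47, and thrombospondin-1 can also activate latent TGF-beta. They did not follow the same course. Thbs1 was at 417.6 CPM (406.4–429.0) on day 4 and 488.5 (475.9–501.4) on day 7, and on day 14 at 9.58 (7.13–12.6), 51.0-fold below day 7 (38.7–68.6). Thbs2 was at 29.9 CPM (27.0–33.1), 28.4 (25.4–31.6) and 22.3 (18.5–26.7), so that all 3 days lay within 2-fold, and day 4 was 1.34 times day 14 (1.09–1.66).

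Spp1 encodes osteopontin, a phosphoprotein that binds integrins and CD44. It was at 6630.6 CPM (6585.9–6675.6) on day 4 and 6700.0 (6653.1–6747.2) on day 7, a ratio of 1.01 whose direction changed with the processing (log2 ratios from −0.09 to 0.14), and at 1311.5 (1280.9–1342.6) on day 14, 5.11-fold below day 7 (4.98–5.24). Fn1 was at 332.6 CPM (322.7–342.8), 384.2 (373.0–395.6) and 106.9 (98.3–116.0), 3.59-fold lower on day 14 than on day 7 (3.29–3.93). Both genes thus had their lowest level in the day 14 library.

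Sparc encodes osteonectin, a collagen-binding protein, and Tgfbi encodes a TGF-beta-induced protein related to periostin. These 2 genes had their highest level on day 14. Sparc was at 9710.5 CPM (9656.3–9764.9), 11681.1 (11619.0–11743.4) and 13148.1 (13050.9–13245.9), a ratio of 1.35 between days 14 and 4 (1.34–1.37) that stayed under 2-fold. Tgfbi was at 13.6 CPM (11.6–15.8), 9.72 (8.01–11.7) and 44.5 (39.0–50.6), 4.58-fold higher on day 14 than on day 7 (3.65–5.78). Because Tgfbi, Spp1 and Fn1 are also known from macrophages, the 13 macrophage markers were summed. They came to 12.9 CPM on day 4 (C1qa at 0), 30.9 on day 7 (C1qa, Wfdc17 and Adgre1 at 0) and 289.2 on day 14 (C1qb at 0). Of the 1540 macrophage marker UMIs of day 14, 1479 lay in 3 cells of the unnamed cluster, which held 3 of the 237 Tgfbi UMIs and 232 of the 6983 Spp1 UMIs of that day. Without the unnamed cluster, the log2 ratio of day 14 to day 7 was 2.07 for Tgfbi, −2.39 for Spp1 and −1.82 for Fn1, against 2.09, −2.35 and −1.84 with it.

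**Figure D1:**
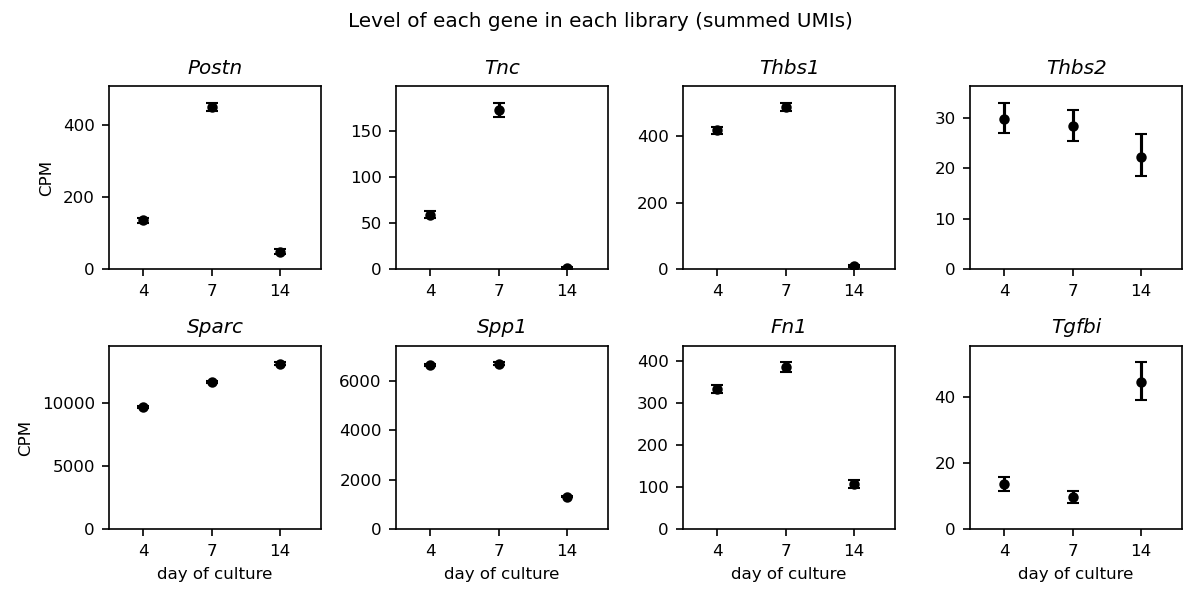
Level of each of the 8 genes in the 3 libraries, with the day of culture on the x axis (spaced evenly, not by time) and CPM of summed UMIs on the y axis of each panel. Points are the single library of a day and bars are exact Poisson 95% intervals. Postn and Tnc peak on day 7, Thbs1, Spp1 and Fn1 are lowest on day 14, and Tgfbi is highest on day 14 at 44.5 CPM.

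More of the 8 genes, and more of all genes, passed 2-fold between days 7 and 14 than between days 4 and 7. A gene was counted as measured with at least 50 UMIs in both groups together and as different at 2-fold on log2 ratios with 1 CPM added. Between days 4 and 7, 2 of the 8 genes (Postn and Tnc) were at least 2-fold higher and 0 lower, beside 2.15% and 2.48% of 11371 genes, and the median log2 ratio was 0.22 for the 8 genes and 0.09 for all genes. Between days 7 and 14, 5 of 8 (Postn, Tnc, Thbs1, Spp1 and Fn1) were at least 2-fold lower, beside 14.4% of 11007 genes, and 1 (Tgfbi) was higher, beside 9.15%. The medians were −2.09 and −0.16. Between days 4 and 14 the counts were again 5 lower and 1 higher, beside 15.7% and 12.3% of 10986 genes. The last 2 comparisons share the day 14 library, and all 3 share libraries in pairs, so they are not independent of each other. No state had at least 50 cells on day 14 and on an earlier day. On days 7 and 14 there were 1276 and 4 ECM myofibroblast-like cells, and 17 and 412 Leydig-like cells. The ratios of day 14 to earlier days thus cannot be told apart from the change in cell states.

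The start regions of 4 of these genes are shown because Postn, Tnc and Spp1 were lower and Tgfbi higher on day 14 than on day 7. Each is the 250 bases before a RefSeq transcript start on GRCm38.p6, written 5′ to 3′ on the strand of the gene, with the window nearest to the GENCODE gene start taken where 2 were listed. RefSeq windows were found for 6 of the 8 genes, Thbs1 and Fn1 having none in the table. Capitals mark every match, on either strand, to TATAAA (the core of a TATA box), TGANTCA (AP-1), GGAATG (TEAD) or AACCACA (RUNX). These motifs were chosen with the levels known.
Postn, chr3:54360857-54361106, plus strand: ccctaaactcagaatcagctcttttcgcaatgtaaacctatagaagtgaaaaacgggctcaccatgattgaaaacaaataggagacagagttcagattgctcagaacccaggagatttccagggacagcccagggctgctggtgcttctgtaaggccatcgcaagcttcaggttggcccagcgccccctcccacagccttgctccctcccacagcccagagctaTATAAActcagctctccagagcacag
Tnc, chr4:64047016-64047265, minus strand: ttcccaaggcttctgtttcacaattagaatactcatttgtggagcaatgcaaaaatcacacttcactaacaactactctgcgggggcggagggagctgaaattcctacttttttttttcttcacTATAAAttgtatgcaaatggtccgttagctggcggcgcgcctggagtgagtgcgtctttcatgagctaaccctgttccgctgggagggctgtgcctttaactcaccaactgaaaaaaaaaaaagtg
Spp1, chr5:104434861-104435110, plus strand: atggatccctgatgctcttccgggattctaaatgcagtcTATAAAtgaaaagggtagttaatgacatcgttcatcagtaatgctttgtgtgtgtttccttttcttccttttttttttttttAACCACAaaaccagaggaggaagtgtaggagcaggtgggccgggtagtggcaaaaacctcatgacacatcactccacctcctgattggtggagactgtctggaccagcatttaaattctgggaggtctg
Tgfbi, chr13:56609336-56609585, plus strand: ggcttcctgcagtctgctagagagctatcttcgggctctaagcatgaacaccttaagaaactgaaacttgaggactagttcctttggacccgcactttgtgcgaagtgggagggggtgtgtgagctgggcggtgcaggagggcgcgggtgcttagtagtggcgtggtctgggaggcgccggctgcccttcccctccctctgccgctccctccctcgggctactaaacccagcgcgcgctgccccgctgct

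In these windows TATAAA began 26 bases before the start in Postn, 126 in Tnc and 211 in Spp1, and Spp1 also had AACCACA at 129 bases. The Tgfbi window held none of the 4 motifs and had 62.4% G and C, against 52% in Postn, 44.8% in Tnc and 43.6% in Spp1. Counting the windows of Thbs2 and of Sparc, the latter 3103 bases from the GENCODE gene start against at most 63 for the others, TATAAA was present in 4 of 6 and AACCACA in 1, while TGANTCA and GGAATG were in 0. Over all 32851 windows of the same length, TATAAA was present in 12.4%, AACCACA in 4.40%, TGANTCA in 6.75% and GGAATG in 12.6%. A match is a description of these letters and no evidence of binding, and the counts of windows are too few to compare.

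The 8 genes are protein-coding and lie on 8 chromosomes of GRCm38. In the GENCODE M21 annotation Fn1 spans chr1:71585520-71653200, Thbs1 chr2:118111876-118127133, Postn chr3:54361109-54391037, Tnc chr4:63959785-64047015, Spp1 chr5:104435118-104441050, Sparc chr11:55394500-55423183, Tgfbi chr13:56609523-56639562 and Thbs2 chr17:14665500-14694235. Opposite-strand genes overlap Tnc, Thbs1 and Fn1, and whether the counting used strand is not given in the sources used here. These 3 overlapping genes had at most 16 UMIs in any library. Gm42793 (chr5:104435121-104436372) overlaps Spp1 on the same strand and was not among the genes counted.

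The 8 genes differed in the states where they were highest, and each is given as a percent of its own highest group because UMI levels were not compared between genes. Groups of at least 50 cells in named states were ranked. Postn and Tnc were highest in the ECM myofibroblast-like cells of day 7, at 506.7 CPM (490.5–523.2) and 205.5 CPM (195.2–216.1). Both are among the genes by which the study described that state, and neither entered the clustering or the marker list here. In the proliferating progenitor-like cells of day 7, Postn was at 441.3 CPM and Tnc at 153.9, or 87.1% and 74.9% of their highest level. The Leydig-like cells of day 14 held 27.8 CPM of Postn and 1.24 CPM of Tnc, the latter from 4 UMIs. A UMI of Tnc was seen in 0.485% of the Leydig-like cells at a median of 5575.5 UMIs and in 32.2% of the ECM myofibroblast-like cells of day 7 at a median of 3424 UMIs.

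Thbs1 was highest in the 66 differentiating myofibroblast-like cells that remained on day 7, at 838.5 CPM (731.3–956.9), above 468.3 CPM (454.4–482.5) in the same state on day 4 and 556.4 (539.5–573.8) in ECM myofibroblast-like cells. It was near the floor in Leydig-like cells, with 2 UMIs (0.619 CPM). Of the 51 Thbs1 UMIs of day 14, 51.0% came from the 35 interstitial progenitor-like cells, which held 3.48% of all UMIs of that day. The most in a single cell of day 14 was 14 of the 51 UMIs, so such shares can rest on few cells. Thbs2 was instead highest in the interstitial progenitor-like cells of day 7, at 69.0 CPM (54.7–85.9), with 22.4 (19.1–26.1) in the ECM myofibroblast-like cells of that day.

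Tgfbi was highest in the differentiating Leydig-like cells of day 14, at 92.3 CPM (78.8–107.5), and next in the interstitial progenitor-like cells of day 7, at 54.4 (41.8–69.6). These intervals did not overlap. In the ECM myofibroblast-like cells it was at 3.01 CPM, from 22 UMIs. A UMI of Tgfbi was seen in 19.6% of the differentiating Leydig-like cells at a median of 2137 UMIs and in 1.65% of the ECM myofibroblast-like cells at 3424 UMIs, and in 10.3% and 0.289% after each cell was thinned to 1500 UMIs. The macrophage markers summed to 11.7 CPM in the differentiating Leydig-like cells, with 6 of 13 at 0 (C1qb, C1qc, Tyrobp, Laptm5, Pf4 and Adgre1), and to 12.1 CPM in the Leydig-like cells, with 6 of 13 at 0.

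By share of UMIs, the ECM myofibroblast-like cells of day 7 held 62.9% of all UMIs of that library but 79.9% of those of Spp1, 74.9% of Tnc, 71.7% of Thbs1 and 70.9% of Postn, and 19.5% of those of Tgfbi. The interstitial progenitor-like cells held 9.97% of all UMIs of day 7 but 55.8% of those of Tgfbi and 24.2% of Thbs2. On day 14 the differentiating Leydig-like cells held 33.6% of all UMIs but 69.6% of those of Tgfbi and 61.7% of Fn1.

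Spp1 had its highest levels in 2 myofibroblast-like groups, with 8514.0 CPM in the ECM myofibroblast-like cells of day 7 and 7161.7 in the differentiating myofibroblast-like cells of day 4. Its other groups of at least 50 cells ran from 5555.0 CPM in proliferating progenitor-like cells of day 4 down to 1153.5 in Leydig-like cells, and the 66 differentiating myofibroblast-like cells of day 7 lay among them at 4020.9. Fn1 was at 427.2 CPM (390.4–466.5) in interstitial progenitor-like cells and 419.4 (404.7–434.5) in ECM myofibroblast-like cells of day 7, which do not differ beyond counting error, and at 47.6 in Leydig-like cells. Sparc varied least: its lowest group, the proliferating progenitor-like cells of day 4 (8437.9 CPM), had 54.4% of its highest, the differentiating Leydig-like cells (15524.0 CPM). In 35 unnamed cells of day 4 Fn1 was at 1269.6 CPM (1066.64–1499.99) and Postn at 0 UMIs, which allows up to 27.6 CPM. The germ cell markers summed to 10994.2 CPM there, with Ddx4, Sycp3, Acrv1 and Stra8 of 10 at 0. The endothelial markers summed to 984.4 CPM in these cells, with Pcp4l1 and Flt1 of 13 at 0, against 111.1 to 174.0 CPM in the day 4 states of at least 99 cells. The part of either cell type in the Fn1 level was not tested.

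**Figure D2:**
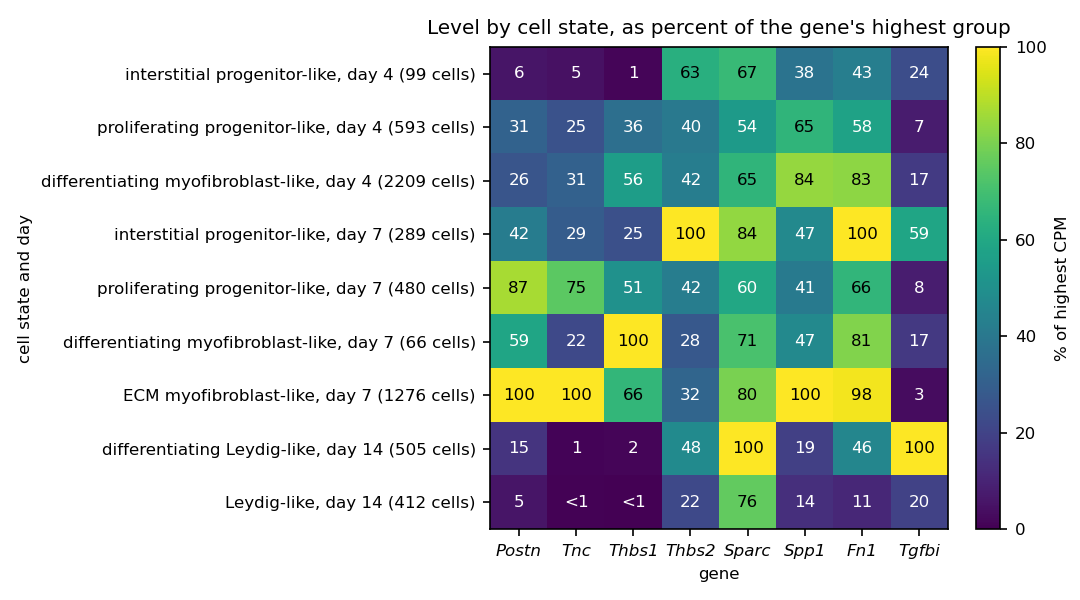
Level of each gene (x axis) in each cell state and day with at least 50 cells (y axis), colored and labelled as the percent of that gene's highest CPM, so colors compare groups within a gene and not genes. Postn, Tnc and Spp1 reach 100% in ECM myofibroblast-like cells of day 7, Thbs2 and Fn1 in interstitial progenitor-like cells of day 7, and Sparc and Tgfbi in differentiating Leydig-like cells of day 14.

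Comparing states within a library holds the library fixed. On day 7, 4 of 8 genes were at least 2-fold higher in ECM myofibroblast-like than in interstitial progenitor-like cells, beside 5.17% of 9289 genes, and 2 were lower, beside 4.31%. Tnc was 3.45-fold higher (2.71–4.46), Thbs1 2.698-fold (2.37–3.09), Postn 2.38-fold (2.09–2.71) and Spp1 2.13-fold (2.07–2.20). Tgfbi was 18.1-fold lower (11.0–30.9) and Thbs2 3.08-fold lower (2.33–4.05), so the thrombospondins lay on opposite sides. Sparc (ratio 0.958, 0.941–0.975) and Fn1 (0.982, 0.893–1.08) were within 2-fold.

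Against the proliferating progenitor-like cells of day 7, only Spp1 of 7 genes measured was at least 2-fold higher in ECM myofibroblast-like cells (2.42-fold, 2.37–2.47), beside 1.69% of 9755 genes, and 0 were lower, beside 5.37%. Tgfbi, with under 50 UMIs in this comparison, was not counted and was at 3.01 and 7.40 CPM. Postn was 1.15-fold (1.08–1.23), Tnc 1.34-fold (1.197–1.49) and Thbs1 1.31-fold higher (1.23–1.40). The direction for Postn changed with the processing (log2 ratios from −0.19 to 0.30).

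On day 4 the differentiating myofibroblast-like cells had 4 of 8 genes at least 2-fold above the 99 interstitial progenitor-like cells, beside 13.7% of 9268 genes, and 0 below, beside 8.72%. These were Thbs1 (37.7-fold, 14.7–138), Tnc (6.80-fold, 2.32–33.1), Postn (4.79-fold, 2.52–10.5) and Spp1 (2.21-fold, 2.08–2.35), the same 4 genes as on day 7. The wide intervals come from 4, 3 and 9 UMIs of Thbs1, Tnc and Postn in the progenitor-like cells. Against the proliferating progenitor-like cells of day 4, 1 of 8 genes (Tgfbi, 2.29-fold, 1.43–3.86) was higher, beside 1.28% of 9939 genes, and 0 lower, beside 5.13%. The Tgfbi difference rested on 20 UMIs in the proliferating cells. It was no longer counted with 10 or 30 components, or at resolution 1.2, where Thbs1 was past 2-fold in its place. The same held when cells were thinned to 1500 UMIs and when each cell was given a state by itself. A gene drops from the count with a ratio under 2-fold or with under 50 UMIs, and these were not separated here.

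On day 14, 4 of 6 genes measured were at least 2-fold lower in Leydig-like than in differentiating Leydig-like cells, beside 4.20% of 7888 genes, and 0 were higher, beside 3.26%. Tgfbi was 5.06-fold lower (3.74–6.93), Fn1 4.12-fold (3.40–5.02), Postn 2.75-fold (2.10–3.63) and Thbs2 2.18-fold (1.47–3.25). Sparc was 1.32-fold lower (1.30–1.34) and Spp1 1.40-fold lower (1.33–1.47). Thbs1 and Tnc had too few UMIs to be counted, with 2 and 4 in the Leydig-like cells. The median depth differed between these states, at 5575.5 and 2137 UMIs per cell, and 6 of 9 immediate-early genes measured, which respond to tissue handling among other stimuli, were also at least 2-fold lower in the Leydig-like cells. The part of either in these differences was not tested.

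Of the 3 states with at least 50 cells on days 4 and 7, Postn was higher on day 7 in all 3 and Tnc in the 2 progenitor-like states. In differentiating myofibroblast-like cells, with 2209 and 66 cells, Postn was at 134.0 CPM (126.6–141.7) and 297.3 (235.0–371.0), but Tnc was at 63.4 (58.4–68.8) and 45.7 (23.6–79.9), with overlapping intervals. In proliferating progenitor-like cells Postn was 2.78-fold (2.49–3.10) and Tnc 2.96-fold higher (2.45–3.59), 2 of 7 genes measured, beside 1.99% of 8423 genes, and 0 were lower, beside 2.03%. In interstitial progenitor-like cells 5 of 8 genes were at least 2-fold higher, beside 5.63% of 4493 genes, and 0 lower, beside 2.43%. They were Thbs1 (16.6-fold, 6.40–61.4), Postn (7.62-fold, 3.95–16.9), Tnc (6.39-fold, 2.10–31.7), Tgfbi (2.499-fold, 1.14–6.47) and Fn1 (2.33-fold, 1.78–3.11). This comparison shares its 99 cells of day 4 with the day 4 comparison of differentiating myofibroblast-like cells and its 289 cells of day 7 with that of ECM myofibroblast-like cells. At resolution 1.2 the cells of this state fell mostly into 2 clusters, one with 6, 255 and 11 cells from days 4, 7 and 14 and one with 82, 36 and 4, so the cells compared between days were not of one cluster at that resolution. The first of these clusters was then unnamed, with median log2 ratios of 0.39 for the interstitial progenitor markers and 0.38 for the differentiating Leydig markers, so the name of the day 7 cells depended on the clustering. In this state 3 of 5 immediate-early genes measured (Jun, Junb and Ier2) were also at least 2-fold higher on day 7, and their part in the result was not tested.

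**Figure D3:**
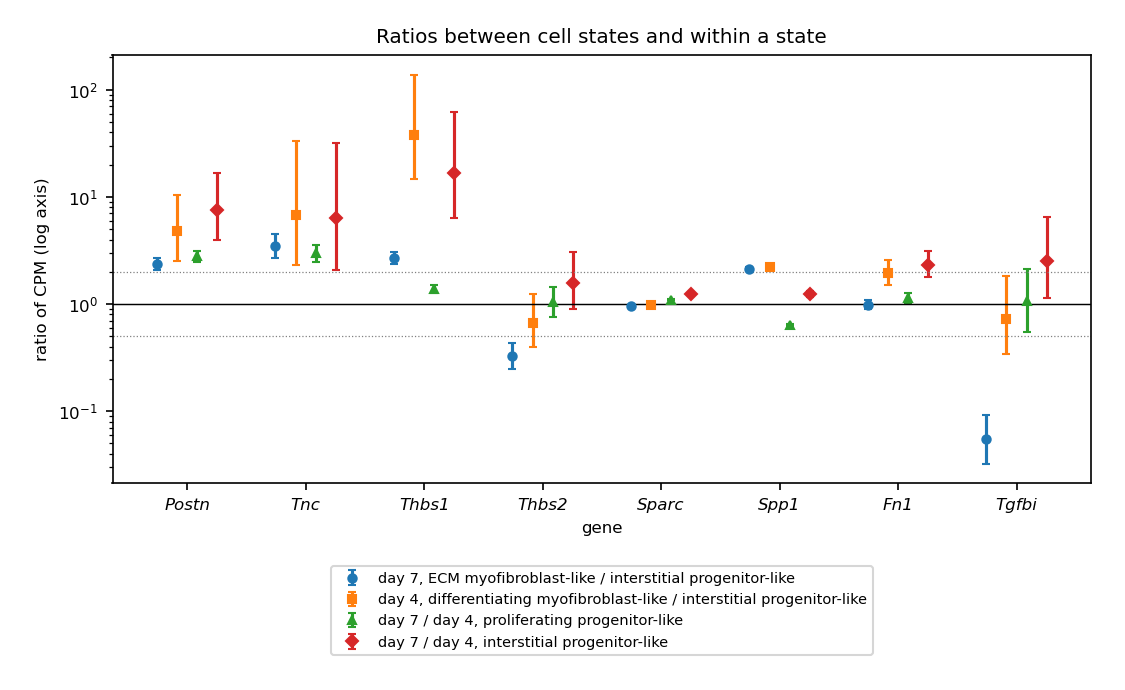
Ratios of CPM for each gene (x axis) on a log y axis, for 2 comparisons of states within a day and 2 comparisons of days within a state. Points are ratios of summed UMIs, bars are exact 95% intervals, the solid line marks a ratio of 1 and dotted lines mark 2-fold. Postn and Tnc lie above 2-fold in all 4 comparisons, and Thbs2 and Tgfbi lie below 1 in ECM myofibroblast-like cells of day 7.

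Clusters within a state also differed. On day 4 the differentiating myofibroblast-like cluster with Hbegf and Ankrd1 among its leading genes (665 cells) held 665.8 CPM of Thbs1 (638.5–694.1), 198.7 of Postn (183.9–214.4) and 120.4 of Tnc (109.0–132.8). The deepest other cluster of that state, led by F3 and interferon-response genes (789 cells), held 365.0 (348.2–382.4), 95.3 (86.8–104.4) and 28.5 (23.9–33.6). Fn1 ran the other way, at 275.2 CPM (257.7–293.6) and 410.8 (393.0–429.3). On day 7 the 2 main ECM myofibroblast-like clusters differed less: Postn was at 571.3 CPM (534.9–609.5) in the cluster led by Grem1 and Hmga2 and at 484.4 (466.4–502.9) in the one led by Mgll and Anxa8, while Tnc was at 145.8 (127.7–165.7) and 218.3 (206.2–230.8). These 2 clusters differed in depth, with medians of 1945 and 8817.5 UMIs per cell.

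Over single cells, Sparc was broad and Spp1 uneven. A Sparc UMI was seen in 99.7%, 99.9% and 100% of cells on days 4, 7 and 14. The middle 50% of cells of day 7 lay between 9028.1 and 14541.5 CPM of Sparc, but between 649.8 and 8083.4 CPM of Spp1, and the tenth of cells with most Spp1 UMIs held 57.3% of them. In the day 14 library 59.1% of cells had a Spp1 UMI, with a median of 264.6 CPM, and after thinning to 1500 UMIs the share was 45.0%, against 78.6% and 80.9% on days 4 and 7. No cell type here is known to lack Spp1, so a background share from free RNA could not be measured. Within the ECM myofibroblast-like cells of day 7, thinned to 1500 UMIs, Spp1 was detected in 92.2% (87.2–95.7%) of cells with a Tnc UMI and 84.0% (81.3–86.3%) of those without. Thbs1 was detected in 45.4% (42.1–48.8%) of cells with a Spp1 UMI and in 57.2% (49.0–65.2%) of those without. The intervals were apart in 4 of 42 such ordered pairings in this state, which were 3 pairs of genes because Tnc and Spp1 counted in both directions. They were apart in 0 of 35 pairings in proliferating progenitor-like cells of day 7. In differentiating myofibroblast-like cells of day 4 it was 1 of 49, and in differentiating Leydig-like cells of day 14 it was 0 of 35.

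**Figure D4:**
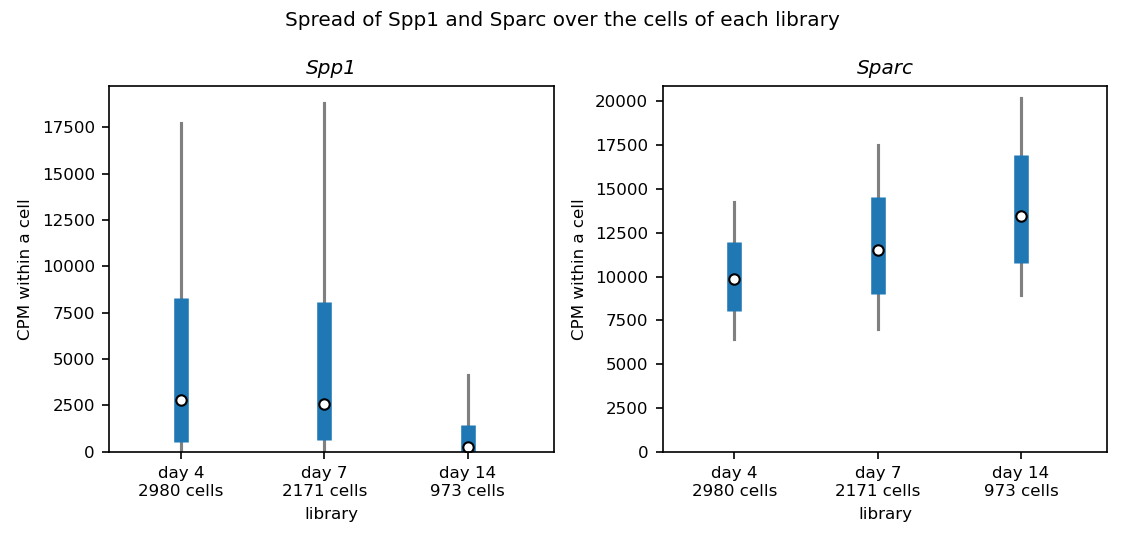
CPM within single cells for Spp1 (left) and Sparc (right), with the library on the x axis. White points are medians, thick bars span the 25th to 75th percentile and thin lines the 10th to 90th. The Spp1 median is 2578.3 CPM on day 7 and 264.6 on day 14, while the Sparc median is 13468.0 CPM on day 14.

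The receptors and intracellular partners were followed as lists. Of 12 integrin alpha chains, 6 had enough UMIs between days 7 and 14, of which 4 were at least 2-fold lower on day 14 and 1 higher, beside 14.4% and 9.15% of all genes, with a median log2 ratio of −1.70 beside −0.16 for all genes. Itga5, the alpha chain of the main fibronectin receptor, went from 60.2 to 7.51 CPM (log2 ratio −2.85), and Itgav, an alpha chain for osteopontin, periostin and fibronectin, from 176.3 to 40.0 (−2.11). Itga9, a chain that binds tenascin-C and osteopontin, went from 11.1 to 34.6 CPM (1.56). Of 3 beta chains measured, 1 was at least 2-fold lower: Itgb1, the common partner, from 2064.2 to 839.2 CPM (−1.30).

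Among 9 other receptors measured between days 7 and 14, 4 were lower and 1 was higher, beside the same 14.4% and 9.15% of all genes. Cd44, which binds osteopontin, went from 237.6 to 13.9 CPM (log2 ratio −4.00), whereas Cd36, a thrombospondin receptor, went from 0.602 to 17.1 CPM (3.50). The Cd36 ratio of 28.4 (13.2–72.6) rested on few UMIs of day 7. Sdc1, Sdc2 and Sdc3, syndecans, were lower, with log2 ratios of −1.08, −1.12 and −1.44. The syndecan Sdc4 went the other way, from 34.1 to 66.1 CPM (0.93), as did Cd47, from 221.0 to 387.1 (0.81), both under 2-fold. On day 14 Cd36 was higher in Leydig-like (25.4 CPM) than in differentiating Leydig-like cells (5.04 CPM), whereas Thbs2 was 2.18-fold lower in the Leydig-like cells.

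The integrin adhesion complex list holds the proteins that couple integrins to actin. Of its 24 genes measured, 20 were at least 2-fold lower on day 14 than on day 7 and 0 higher, beside 14.4% and 9.15% of all genes and with a median log2 ratio of −1.67, and 21 were lower than on day 4, beside 15.7%. Tgfb1i1, which encodes the adhesion protein Hic-5, went from 97.4 to 8.08 CPM (−3.44), Nedd9 from 33.1 to 3.19 (−3.02) and Actn1, an actin cross-linker, from 483.5 to 59.9 (−2.99). On day 4, 15 of 23 measured were at least 2-fold higher in differentiating myofibroblast-like than in interstitial progenitor-like cells, beside 13.7% of all genes, with a median of 1.24. Vcl, which encodes vinculin, was at 204.8 and 34.2 CPM there. On day 7, 6 of 23 were higher in ECM myofibroblast-like than in interstitial progenitor-like cells, beside 5.17% of all genes, with a median of 0.71. Between days 4 and 7, when Postn and Tnc were higher, 0 of 24 were at least 2-fold higher and 1 was lower (median −0.34), beside 2.15% and 2.48%.

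Of 21 matrix partners, 7 were at least 2-fold lower and 4 higher on day 14 than on day 7, beside 14.4% and 9.15% of all genes. Lox, a collagen cross-linking enzyme, went from 1869.3 to 61.4 CPM (log2 ratio −4.91) and Fbln2 from 1194.2 to 108.9 (−3.44), both of which were also markers used to name the ECM myofibroblast-like state. Ltbp1, which tethers latent TGF-beta, went from 117.6 to 15.0 (−2.89). Col6a1 and Col6a2, collagen VI chains, went from 200.3 to 764.0 CPM and from 111.0 to 339.0, but Col6a3, the chain of the same collagen, from 255.5 to 61.8. Among 7 family relatives measured, 2 were higher and 3 lower in the same comparison. The SPARC relatives Smoc1 and Smoc2 went from 1.81 to 19.9 CPM and from 173.0 to 1226.4, and Fstl1 from 2360.6 to 577.7. On day 7 Smoc2 was at 17.4 CPM in ECM myofibroblast-like and at 913.1 in interstitial progenitor-like cells.

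**Figure D5:**
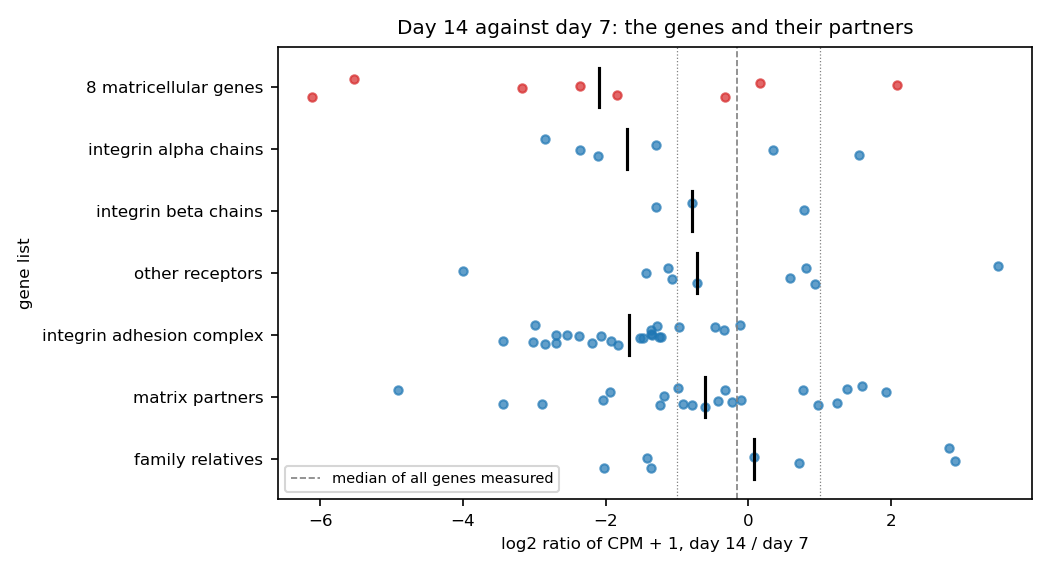
Log2 ratios of day 14 to day 7 (x axis; CPM plus 1) for the 8 matricellular genes in red and the measured genes of 6 partner lists in blue (y axis), with points spread vertically only for legibility. Black ticks are list medians, the dashed line is the median of all genes (−0.16) and dotted lines mark 2-fold. The adhesion complex list lies wholly below 0, with a median of −1.67.

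Across the 13 groups of cluster and day with at least 50 cells, Tnc and Thbs1 had the most alike levels of the 28 pairs (Pearson r = 0.930 on log2 CPM), followed by Postn and Tnc (0.885). Tnc and Tgfbi had r = −0.707, and Thbs1 and Thbs2, the 2 thrombospondins, had 0.114. Among genes outside the 8, the most alike was Tnfrsf11b for Tnc (0.988), Pdlim7, an adhesion complex gene, for Thbs1 (0.989), Rasa1 for Postn (0.966), Fgf2 for Spp1 (0.961) and Timp3 for Fn1 (0.970). The corresponding genes were Abca8a for Tgfbi (0.964), App for Sparc (0.925) and Chrdl1 for Thbs2 (0.812). The groups share 3 libraries, so these values describe likeness only. The Fgf2 transcript count is separate from the Fgf2 protein added to the medium.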

How the data were processed

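The deposited values are raw counts of UMIs per gene and cell, without normalization, which the authors made with Drop-seq tools from reads aligned to GRCm38 with STAR (the submitters' notes name STAR 2.5.2a, Picard 2.6.0 and SAMtools 1.2). The authors' merged table of filtered cells was used, and no entry differed from the tables per day. Another 495 columns, named as day 0 cells, match none of the 3 samples and were left out. The per-day tables held 3300, 2400 and 1300 barcodes, and among the cells used the fewest genes in a cell were 501 and the highest mitochondrial share was 9.93%.

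Counts were scaled to 10000 per cell and clustered in Seurat 5.3.0 (R 4.3.3; 2000 variable genes, 20 components, 20 neighbours, resolution 0.8), without 79 genes. These were the 8 and the lists of integrin chains, other receptors, family relatives and adhesion complex genes. The matrix partners and the immediate-early genes were left in. A named cluster needed 3 markers with 10 UMIs at 1.5 times the other cells, and a rule for ties was set after the clusters were seen. Because names were rebuilt, differences from the study may come from them. Doublets were left in, and removal of the 6% of cells with the highest Scrublet scores (scanpy 1.11.5) was an alternative. Levels are CPM of summed UMIs with exact Poisson intervals, shares carry Clopper-Pearson intervals, ratios carry exact conditional binomial intervals, and 3 counts are the limit for a count of 0. PCR duplicates are collapsed by UMIs. Named genes are the 8, genes of each list, and the genes most alike over groups. The rule of up to 4 genes per list with the largest ratios past 2-fold was not kept throughout. More genes were named of some lists, Sdc4 and Cd47 were under 2-fold, and Itga10 (log2 ratio −2.36 of day 14 to day 7) was left out. Scripts were tested on simulated data. The members and lists were chosen with earlier results of these data known.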

Additional observations from a re-analysis of the deposited data

Results flagged for a closer look

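Spp1 moved in opposite directions between days 4 and 7 in 2 states. Its log2 ratio of day 7 to day 4 was -0.66 in proliferating progenitor-like cells (5555.0 to 3517.8 CPM) and 0.30 in interstitial progenitor-like cells (3244.4 to 3995.8 CPM), and neither counting interval includes a ratio of 1. Both states come from the same 2 libraries, with 1 per day, so the difference was not tested. Neither value reached 2-fold. In the third state with at least 50 cells on both days, differentiating myofibroblast-like (2209 and 66 cells), Spp1 was at 7161.7 and 4020.9 CPM, so it was lower on day 7 in 2 of 3 states. In both clusters of the proliferating state Spp1 was lower on day 7, at 5470.9 and 3082.9 CPM in one and 5690.4 and 3968.8 in the other.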

How the results depend on the processing

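The counts of the 8 genes past 2-fold were recomputed under other cell filters, doublet removal, clusterings, scalings, weights and thinning, and 154 values stayed within 1.5 times the reported count while 8 did not. For differentiating myofibroblast-like over proliferating progenitor-like cells of day 4, the higher count was 0 in place of 1 with 10 components, with 30 components, with cells thinned to 1500 UMIs and with a state given to each cell by itself. With 10 components, 1 gene in place of 0 was lower in differentiating myofibroblast-like than in interstitial progenitor-like cells of day 4. With thinning, 3 in place of 5 were higher on day 7 than on day 4 in interstitial progenitor-like cells, 2 in place of 4 were lower in Leydig-like cells, and 1 in place of 2 was lower in ECM myofibroblast-like than in interstitial progenitor-like cells of day 7. Thinning leaves fewer genes with 50 UMIs. No called gene changed direction. For single genes, 671 recomputed levels, log2 ratios and shares of cells lay within the counting interval of the main value, and 217 lay outside it. Leaving out the unnamed cluster was added after seeing the data. Where under 50 cells carried the name of a state under a setting, in the other clusterings because its cluster lost the name, its comparisons were not run: those of interstitial progenitor-like cells at resolution 0.4 and with a state per cell (those of day 7 also at resolution 1.2 and with 30 components), and that of Leydig-like cells at resolutions 0.4 and 1.2. The cluster with most day 14 cells outside the Leydig-like one was unnamed there (923 and 527 cells), with interstitial progenitor as its best list. At resolution 1.2 the higher count for differentiating myofibroblast-like over proliferating progenitor-like cells of day 4 stayed 1, but the gene was Thbs1 and not Tgfbi. Scaling by the median ratio over genes moved the all-gene median between days 4 and 7 from 0.09 to −0.01. No paired analysis was possible because each day has 1 library.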
